A study of Sus scrofa with 21 samples.

Results

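The tumour necrosis factor (TNF) superfamily, its receptors and the TRAF adaptors were followed in the whole blood of 2 pig breeds, as measured on a custom Agilent array with 60-base probes. Members were all genes whose symbol in the scanner files begins with TNF or with TRAF and a digit, together with LTA, LTB, LTBR, CD40, CD40LG, FAS, FASLG, CD27, CD70, TRADD, RIPK1 and TANK. The rule found 33 genes, covered by 68 of the 60305 probes that were not controls. TRADD, TRAF1, TRAF2 and TNFAIP3 were not analysed here, since no probe carried these symbols.

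The DD pigs are SLAdd minipigs, an inbred line kept homozygous at the swine leukocyte antigen (SLA) locus, and the controls were Large White (LW) pigs. The 10 DD arrays cover 5 litters and the 11 LW arrays cover 6, with 1 array for each pig, bled at 60 days of age on a standard diet given ad libitum. The DD pigs come from a single closed herd, so breed, herd history and SLA haplotype cannot be told apart. Every pig except LW_02 has a sibling among the arrays. Blood is a mixture, so fewer cells of a type and less RNA per cell cannot be told apart in any value given here.

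Ligands of this superfamily are mostly membrane proteins that act as trimers, some of which are also shed, and they bind receptors with cysteine-rich outer domains. Receptors with a death domain recruit TRADD, FADD and RIPK1 and can lead to NF-kB signalling or to cell death, whereas receptors without one bind TRAF proteins directly. In blood, monocytes are a main source of TNF, T cells make CD40LG, FASLG, LTA and LTB, and B cells depend on TNFSF13B and CD40.

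The probe sequences matter for reading the results, because several probes of 1 gene cover nearly the same bases. The array files give no place for these probes in the genome or the transcript. Of the 4 TNF probes, 3 shared a run of 54 bases, of which the first 30 are shown, and the other one shared no long run with them.
TNF, run shared by 3 probes: gcctctgtgcctccttttgcttatgttttt
TNF, separate probe: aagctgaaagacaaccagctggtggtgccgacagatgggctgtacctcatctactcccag

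The 3 probes of TNFRSF21 stood for 2 places, since 2 of them shared a run of 54 bases. The first 30 bases of that run and of the third probe are shown.
TNFRSF21, run shared by 2 probes: ttataaacgtactctcaatgctcagttgcc
TNFRSF21, separate probe: tctttggcccaacagttctatttttgtgaa

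The 2 probes of CD70 overlapped by 33 bases, shown in capitals, and yet gave different results. The 2 probes of LTA did not overlap, and the second, of which 30 bases are shown, held a stop codon in all 3 forward frames. The TRAF3IP2 probe, also shown by its first shared bases, had 57 bases in common with another probe that the files name by locus.
CD70, called probe: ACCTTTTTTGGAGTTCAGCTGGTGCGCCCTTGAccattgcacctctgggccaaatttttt
CD70, other probe: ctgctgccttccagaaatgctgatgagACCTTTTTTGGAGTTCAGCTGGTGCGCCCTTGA
LTA, called probe: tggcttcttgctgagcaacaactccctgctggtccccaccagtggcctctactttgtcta
LTA, other probe: aatcacagagggatgtcagaagagtgtgac
TRAF3IP2, shared run: gggtgtgctcagaccaaactgatgcatgga

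Arrays differed in brightness (75th percentile of processed signal, log2 scale), which ranged from 6.56 to 8.49 in DD pigs (median 7.64) and from 7.37 to 8.62 in LW pigs (median 8.41). Its mean on DD and LW arrays was nearly equal on chip 1, at 7.95 and 8.02, further apart on chip 2, at 7.55 and 8.31, and furthest on chip 3, at 7.09 and 8.36. The deposited values were quantile normalized, which gives all arrays nearly the same distribution, and no probe was saturated. The blood genes HBB, CD3E, MS4A1, CD14 and S100A9 all had a signal on the array. All 13 T cell markers tested had a log2 difference below 0 (median -0.50), and 5 of them were lower in DD pigs after adjustment. No B cell, NK or granulocyte marker passed the test, 3 of 11 erythroid markers were higher, and 2 of 11 monocyte and 2 of 9 platelet markers were lower. Of everything tested on the array, 11.4% was higher and 9.57% lower in DD pigs.

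TNF, CD70 and TNFSF12 among the ligands and the adaptor TRAF3IP2 were higher in DD than in LW blood, and the receptor TNFRSF21 was lower. The other 26 tested genes did not pass the test, among them the receptors of TNF, FAS with its ligand, and TRAF3 to TRAF7. The calls of TNF, CD70 and TNFSF12 stood neither without chip 3 nor with array brightness in the model. That of TRAF3IP2 was lost without chip 2 and also without chip 3, and that of TNFRSF21 was lost with brightness. A gene was called at an adjusted p below 0.05 in limma, with breed and chip as fixed effects, the sow as a random block and Benjamini-Hochberg adjustment over all 35578 features. Of the 33 members, 31 remained once the dimmest 25% of probes, ranked over all arrays, had been removed, and 5 of these (16.1%) were called, against 21% of all features and 22.1% of the 8152 features named by a gene symbol. In DD pigs 4 members were higher and 1 was lower, where 11.4% of all features were higher and 9.57% lower. The median log2 difference of DD minus LW was -0.09 over the members and -0.04 over all features, and the median size of the difference was 0.22 and 0.23. No excess of calls was seen among the members. Without the sow block, 16.1% of the members and 14.4% of all features were called, so the order of these 2 shares depended on the block.

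**Figure D1:**
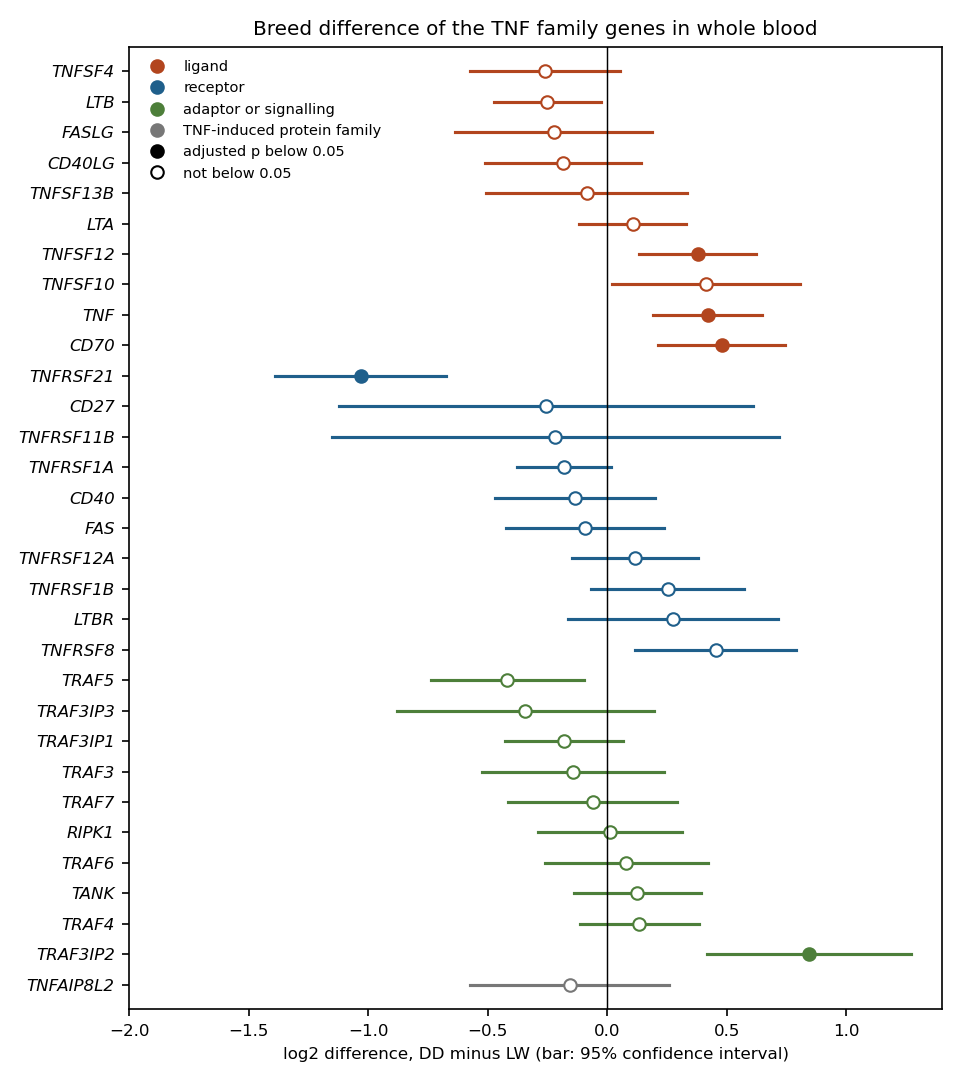
Log2 difference (DD minus LW, x axis) of the 31 tested genes, grouped by role, with 95% confidence intervals from limma; filled points have an adjusted p below 0.05. The intervals of TNFRSF21, at -1.03, and TRAF3IP2, at 0.84, lie farthest from 0, and most other intervals cross it.

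Ligands held 3 of the 5 calls. Of 10 tested ligand genes, 3 were higher in DD pigs and none was lower, where 11.4% of all features were higher and 9.57% lower. The differences ran from -0.26 to 0.48 with a median of 0.01.

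TNF encodes the cytokine that gives the family its name. Its normalized log2 signal ranged from 8.42 to 9.67 in DD pigs (median 8.57) and from 8.00 to 8.60 in LW pigs (median 8.42). The breeds overlapped, with 4 of 10 DD pigs above every LW pig and 7 of 11 LW pigs below every DD pig. The log2 difference was 0.42 ± 0.11 (SE), a 1.34-fold higher level, with an adjusted p of 0.0163 in limma. The highest level was that of DD_21, whose array was also the dimmest of all. TNF was called with any 1 pig left out, DD_21 included (adjusted p at most 0.0496 in limma). On chip 3 all 3 DD pigs lay above all 3 LW pigs, at 9.08 to 9.67 against 8.39 to 8.60. On chips 1 and 2 the breeds overlapped. Of the 31 tested members, 4 had all DD pigs of chip 3 above all LW pigs of that chip, the uncalled TNFRSF12A among them. Another 3 had them all below, the uncalled LTB and TRAF6 among them, and the share over all features was not computed.

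CD70 is the ligand of CD27 on activated lymphocytes and antigen-presenting cells. Its signal ranged from 5.42 to 6.83 in DD pigs (median 6.16) and from 5.35 to 6.15 in LW pigs (median 5.46). The ranges overlapped, although 5 of 10 DD pigs lay above every LW pig. The log2 difference was 0.48 ± 0.13, or 1.39-fold, with an adjusted p of 0.0176 in limma. As for TNF, the 3 DD pigs of chip 3 were all above the LW pigs of that chip, and DD_21 was the highest. Without LW_18 the adjusted p of CD70 was 0.0511.

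TNFSF12, also known as TWEAK, is a ligand made by monocytes and other leukocytes. Its signal ranged from 13.98 to 15.63 in DD pigs (median 14.50) and from 13.58 to 15.18 in LW pigs (median 14.32). The ranges overlapped widely, and in both breeds the pigs of chip 3 were the highest. The log2 difference was 0.38 ± 0.12, or 1.30-fold, with an adjusted p of 0.0313 in limma, and on chip 3 every DD pig stood above every LW pig. The adjusted p rose to between 0.0514 and 0.0894 when any one of DD_01, DD_10, DD_21, DD_23, LW_05, LW_12, LW_14, LW_18 or LW_22 was left out. With litter means in place of single pigs the call was lost as well, at 0.36 with an adjusted p of 0.0593 in limma.

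TNFSF10 (TRAIL), an inducer of apoptosis, ranged from 8.99 to 10.86 in DD pigs (median 9.34) and from 8.24 to 9.59 in LW pigs (median 9.24). Its log2 difference of 0.41 ± 0.19 did not pass the test (adjusted p 0.119 in limma). The DD range was drawn out by 1 pig, DD_06, at 10.86 with the next at 9.99, and without this pig the difference was 0.23.

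LTA and LTB flank TNF in the SLA region of chromosome 7 of Sscrofa11.1, where LTA lies at 23696387 to 23698280, TNF at 23699635 to 23702393 and LTB at 23704842 to 23707036. LTA, a secreted ligand of the TNF receptors, ranged from 6.71 to 7.53 in DD pigs (median 7.24) and from 6.89 to 7.62 in LW pigs (median 7.13). Its log2 difference was 0.11 ± 0.11. LTB, which anchors LTA at the cell surface, ranged from 10.17 to 10.92 in DD pigs (median 10.49) and from 10.33 to 11.09 in LW pigs (median 10.78). Its difference was -0.25 ± 0.11 with an adjusted p of 0.0963 in limma, which was 0.0252 without DD_06, 0.0481 without LW_07 and 0.0480 without LW_15. Averaged over probes, TNF alone of the 3 neighbouring genes was called. The LTA value averages a bright probe and a dimmer one of opposite sign, and with the brightest probe of each gene LTA was higher in DD pigs (0.39, adjusted p 0.0235 in limma).

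Fewer probes were well above background on DD than on LW arrays in general (median 51.9% against 59.7%), which touches every count of such arrays given here by breed. CD40LG, the T cell ligand of CD40, was well above background on 3 of 10 DD and 6 of 11 LW arrays, and FASLG, the ligand of FAS on cytotoxic cells, on 5 and 10. Their log2 differences were -0.19 ± 0.16 and -0.22 ± 0.20, neither past the test. The 13 T cell markers, 5 of them lower in DD blood, had a summed log2 signal of 12.36 to 13.69 (median 13.23) in DD and 12.95 to 13.87 (median 13.71) in LW pigs. Their part in the values of LTB, CD40LG and FASLG was not tested. TNFSF13B (BAFF), a survival factor of B cells, had a difference of -0.09 ± 0.20. TNFSF4 (OX40 ligand) was near background, with only 1 LW array and no DD array well above it. TNFSF4 did not pass the test (adjusted p 0.215 in limma), and no fold is given for it.

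**Figure D2:**
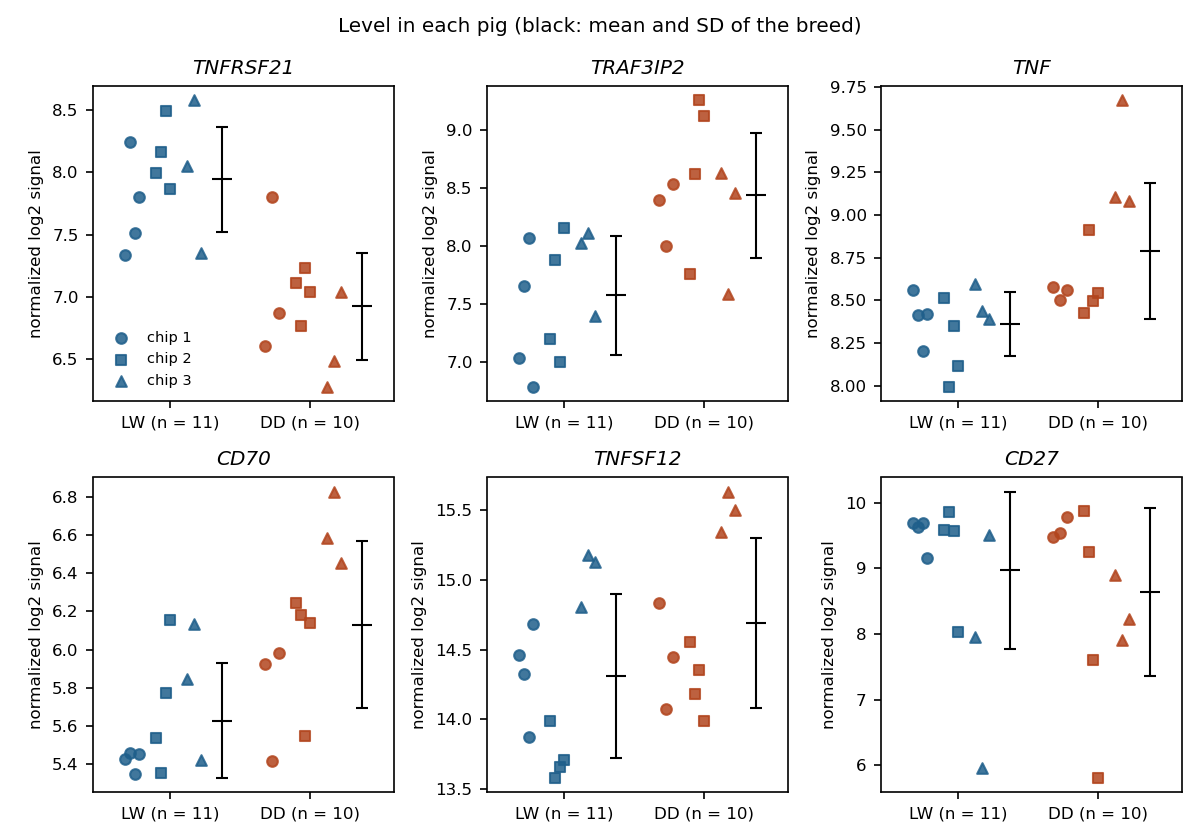
Normalized log2 signal (y axis) of the 5 called genes and CD27 in each pig, by breed, with chip 1, 2 and 3 as circles, squares and triangles; black bars give the mean and SD of 10 DD or 11 LW pigs. For TNF, CD70 and TNFSF12 the highest points are DD pigs of chip 3, whereas the mean of TNFRSF21 is lower and that of TRAF3IP2 higher in DD pigs on all 3 chips.

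Receptors gave a single call. Of 10 tested receptor genes, TNFRSF21 was lower and none was higher, against 9.57% and 11.4% of all features. The median difference was -0.11.

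TNFRSF21, the death domain receptor also called DR6, lies on chromosome 7 of Sscrofa11.1 at 42020219 to 42091521. Its signal ranged from 6.28 to 7.80 in DD pigs (median 6.95) and from 7.34 to 8.58 in LW pigs (median 8.00). The breeds were nearly separated, with 9 of 10 DD pigs below every LW pig and 7 of 11 LW pigs above every DD pig, the exception being DD_06. The log2 difference was -1.03 ± 0.17, a 2.05-fold lower level in DD pigs, with an adjusted p of 0.000526 in limma, the lowest among the members. All 3 probes gave the same direction, at -1.18, -1.15 and -0.77, and each was called. The third of these was well above background on 2 of 10 DD arrays but on all 11 LW arrays. On chips 2 and 3 every DD pig was below every LW pig, and the call stood when any 1 pig was left out (adjusted p at most 0.00269).

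TNFRSF1A and TNFRSF1B, the receptors of TNF, differed by -0.18 ± 0.09 and 0.25 ± 0.15. TNFRSF1A ranged from 10.13 to 11.07 in DD pigs and from 10.39 to 11.18 in LW pigs, and TNFRSF1B from 7.48 to 8.91 and from 7.66 to 8.68. Neither passed the test (adjusted p 0.166 and 0.241 in limma), so that higher TNF signal in DD blood was not accompanied by a called change of either receptor. TNFRSF12A, the receptor of TNFSF12, differed by 0.12 ± 0.13.

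CD27, the receptor of CD70 on T and B cells, was the gene with the greatest spread among DD pigs. Its signal ranged from 5.81 to 9.88 in DD pigs (median 9.07, SD 1.27) and from 5.96 to 9.86 in LW pigs (median 9.57, SD 1.20). The lowest pig of each breed, DD_16 and LW_22, was followed by pigs at 7.60 and 7.95, and the breeds covered nearly the same range. The difference of -0.26 ± 0.42 had a 95% confidence interval of -1.12 to 0.61, so a change as large as that of TNFRSF21 is within it. The CD27 difference turned to 0.06 without DD_16 and was -0.52 without LW_22.

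TNFRSF8 (CD30), found on activated lymphocytes, lay just outside the threshold. Its signal ranged from 5.06 to 6.12 in DD pigs (median 5.40) and from 4.29 to 5.85 in LW pigs (median 5.09), with a difference of 0.45 ± 0.16 and an adjusted p just above 0.05 in limma. It passed without DD_08 (adjusted p 0.0390), DD_11 (0.0357) or LW_14 (0.0281), and in 5 of 15 other ways of processing. The difference of TNFRSF8 was positive on all 3 chips, at 0.56, 0.42 and 0.38. The 2 TNFRSF8 probes hold the same 60 bases, so they did not measure separate places. A further copy of these bases, printed under another name, gave 0.27 with an adjusted p of 0.253 in limma. Counting either probe, TNFRSF8 was well above background on 9 DD and 8 LW arrays.

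FAS, CD40 and LTBR differed by -0.09 ± 0.16, -0.14 ± 0.16 and 0.27 ± 0.21, with adjusted p of 0.698, 0.566 and 0.360 in limma. FAS triggers apoptosis, CD40 licenses B cells and monocytes, and LTBR answers to lymphotoxin. TNFRSF11B (osteoprotegerin), a soluble decoy receptor, was well above background on 1 DD and 2 LW arrays, and its difference went from -2.05 on chip 1 to 1.58 on chip 3. TNFRSF18 (GITR), carried by regulatory T cells, had 1 probe, which was well above background on no array and was removed by the filter.

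Adaptors and signalling proteins comprised 10 tested genes, of which 1 was higher and none was lower, against 11.4% and 9.57% of all features. Their differences ran from -0.42 to 0.84 with a median of -0.03.

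TRAF3IP2, also called Act1, is the adaptor of the IL17 receptors and lies on chromosome 1 of Sscrofa11.1 at 77483997 to 77541557. Its signal ranged from 7.59 to 9.26 in DD pigs (median 8.50) and from 6.79 to 8.16 in LW pigs (median 7.65). Of 10 DD pigs, 7 lay above every LW pig, and 5 of 11 LW pigs lay below every DD pig. The log2 difference was 0.84 ± 0.21, or 1.79-fold, with an adjusted p of 0.0112 in limma, and it was 0.93, 1.13 and 0.38 on chips 1, 2 and 3. This value came from 1 probe, since the filter on dim probes removed the other TRAF3IP2 probe, which was well above background on no array. A further probe, which shares 57 bases with it and is named by a locus number that the reference gene table assigns to TRAF3IP2, gave 0.84 with an adjusted p of 0.00844 in limma.

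Among the TRAF proteins, which link receptors to ubiquitin ligase activity and kinases, TRAF5 came nearest to the threshold. TRAF5 ranged from 4.48 to 6.06 in DD pigs (median 5.32) and from 5.00 to 6.17 in LW pigs (median 5.86), and was well above background on 6 of 10 DD and all 11 LW arrays. Its difference was -0.42 ± 0.15 with an adjusted p of 0.0567 in limma, and it was negative on each chip. It passed without DD_06 (adjusted p 0.0440), DD_11 (0.0244), DD_19 (0.0216) or LW_07 (0.0397). TRAF3, TRAF4, TRAF6 and TRAF7 had differences of -0.14, 0.13, 0.08 and -0.06, and RIPK1, the kinase of the TNF receptor complex, of 0.01 ± 0.14. TANK, which binds TRAF proteins and TBK1, had a difference of 0.13 ± 0.13, and its 10 DD pigs reached both above (5 pigs) and below (2 pigs) the whole LW range. The 2 brighter TANK probes gave -0.06 and -0.05, and the dimmest, well above background on 1 DD and 3 LW arrays, gave 0.48. The TANK difference was -0.05 with probes near background left out and -0.06 with the brightest probe alone.

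TRAF3IP3, an adaptor of lymphoid cells, differed by -0.34 ± 0.26 and, as for CD27, had its lowest values in DD_16 and LW_22. Without DD_16 the difference of TRAF3IP3 was -0.15, and without LW_22 it was -0.46. TRAF3IP1, a protein of ciliary transport named for its binding to TRAF3, was well above background on 3 LW arrays and no DD array, and did not pass the test (adjusted p 0.273 in limma). In the TNF-induced protein family, TNFAIP8L2, a brake on T cell and Toll-like receptor signalling, differed by -0.16 ± 0.20, and both probes of TNFAIP6, a hyaluronan-binding protein of inflammation, were well above background on no array and were removed.

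No member was free of overlap between the breeds, against 0.382% of all features. The SD among pigs of a breed had a median of 0.46 over the members in DD and 0.39 in LW pigs. The low ends of the ranges fell on few pigs. DD_16 was the lowest DD pig for 10 of the 31 genes and DD_21 for 9, while LW_22 and LW_24 were the lowest LW pigs for 10 and 9. The array of LW_22, at 8.58, was among the brighter ones and that of DD_21, at 6.56, the dimmest.

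Single probes showed where a gene's mean hid a disagreement. Of the 64 kept probes 10 were called, in 6 genes, against 21.7% of all single probes. Of 20 genes with at least 2 kept probes, 8 had probes of opposite sign. For TNF, the 3 overlapping probes gave 0.51, 0.65 and 0.50 and were each called, whereas the separate probe gave 0.01 and was well above background on 2 DD and 6 LW arrays. The TNF call thus rested on 1 stretch of the transcript. For LTA, the probe with open forward frames gave 0.39 and was called (adjusted p 0.0236 in limma), but the other gave -0.18. For CD70, the called probe gave 0.72 and the other, which shares 33 bases with it, 0.24. For TNFSF12, the 2 probes gave 0.43 and 0.33, of which the first was called, and for LTB the probes gave -0.36 and -0.15. The file describes 1 of the TNFSF12 probes as also covering the TNFSF12-TNFSF13 readthrough transcript and TNFSF13.

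**Figure D3:**
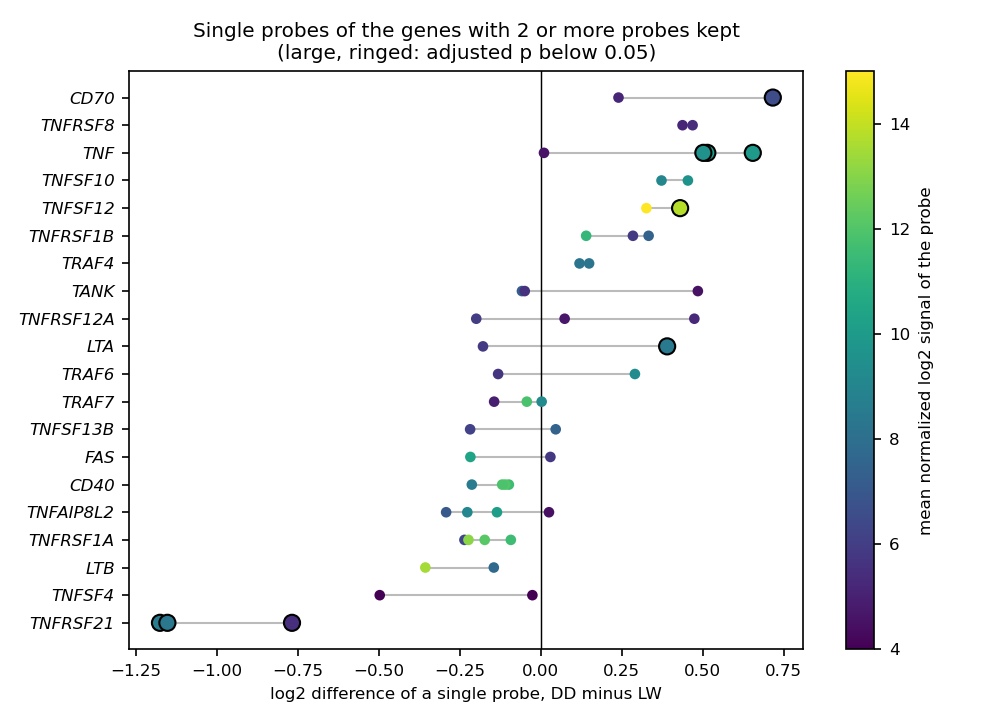
Log2 difference (DD minus LW, x axis) of each kept probe for the 20 genes with at least 2, coloured by the mean normalized log2 signal of the probe; large ringed points have an adjusted p below 0.05. The 3 TNFRSF21 probes lie together on the left, whereas TNF, CD70 and LTA each have a called probe and a dimmer probe that was not called.

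Some member probes were printed on the array again under another name with the same 60 bases, which gave a check of the measurement itself. For 13 such pairs in 12 genes, in which both probes were kept, the log2 differences lay a median of 0.08 apart and at most 0.61 apart, and no probe of any pair was called. The largest gap belonged to TNFSF4, a probe near background, whose sequence the files also list under the name Tnfrsf4. For TNFSF10 both copies gave 0.45, and for CD27 they gave -0.26 and -0.27. Other pairs lay further apart, such as a TNFRSF1B probe at 0.28 with its copy at -0.06. A TNFSF12 probe gave 0.33 and its copy 0.25. Near the bright LTB probe, 3 probes that share 56 bases with it each gave -0.32, and the 2 probes for the opposite strand gave -0.08 and -0.13.

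Within the chips, 15 of the 31 members had the same sign of difference on all 3, the 5 called genes among them. The share over all features was not computed. The calls rest on the same values, so their shared sign is no separate support. Differences above 0 were seen for 18, 12 and 19 members on chips 1, 2 and 3. The differences of TNF were 0.15, 0.35 and 0.81, those of CD70 0.35, 0.32 and 0.82, those of TNFSF12 0.12, 0.54 and 0.46, and those of TNFRSF21 -0.63, -1.09 and -1.39. The differences of TNF, CD70 and TNFRSF21 were largest on chip 3, where the gap in brightness between the breeds was also widest. That of TNFSF12 was largest on chip 2, and that of TRAF3IP2, at 0.93, 1.13 and 0.38, was smallest on chip 3. Whether brightness had a part in these differences within the chips was not tested.

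**Figure D4:**
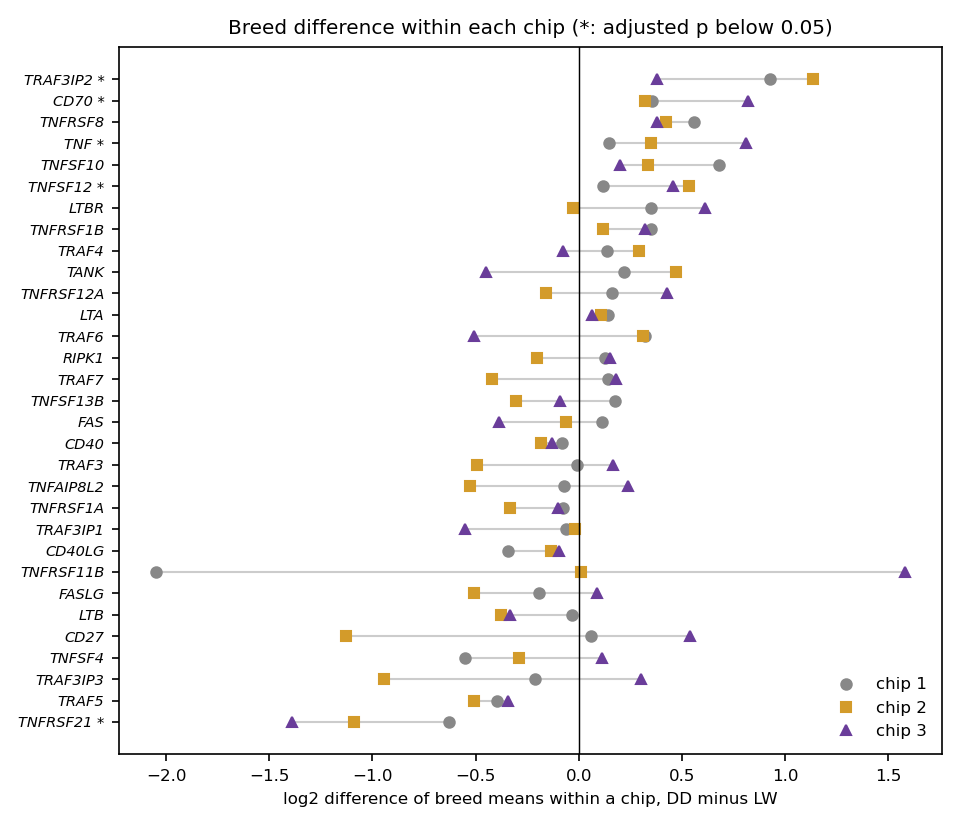
Difference of the breed means within chip 1 (circle), chip 2 (square) and chip 3 (triangle), DD minus LW on the log2 scale, for the 31 tested genes in order of their overall difference. The called genes, marked by an asterisk, keep 1 side of 0 on all chips, whereas TNFRSF11B, TANK and TRAF6 cross it widely.

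Calls were fewer without chip 3 and with brightness in the model, among all features as well as among the members. Without chip 3, which leaves out 6 arrays, 1.5% of all features were called against 21% as reported, and with brightness as a covariate 2.19% were called. Leaving out chip 1 gave 22.3% and leaving out chip 2 gave 14.1%. Without chip 3 the call of TNFRSF21 alone stood (-0.88, adjusted p 0.0486 in limma), while TRAF3IP2 had a larger difference than with all chips, at 1.11 (0.0504), TNF at 0.25 (0.435), CD70 at 0.34 (0.408) and TNFSF12 at 0.33 (0.436). With brightness as a covariate TRAF3IP2 alone was called (1.16, adjusted p 0.0194 in limma), TNFRSF21 was at -0.78 (0.0649), TNF at 0.27 (0.455), CD70 at 0.28 (0.537) and TNFSF12 at 0.13 (0.866). All 5 genes kept their sign under both. TRAF3IP2 fell to 0.35 without chip 2 (adjusted p 0.123 in limma), where TNFSF12 was at 0.28 (0.147). Without a chip term TNF had an adjusted p of 0.0685, CD70 of 0.0643 and TNFSF12 of 0.295. In the 15 other ways of processing TNFRSF21 was called 14 times, TRAF3IP2 13, TNF and CD70 12 and TNFSF12 8.

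**Figure D5:**
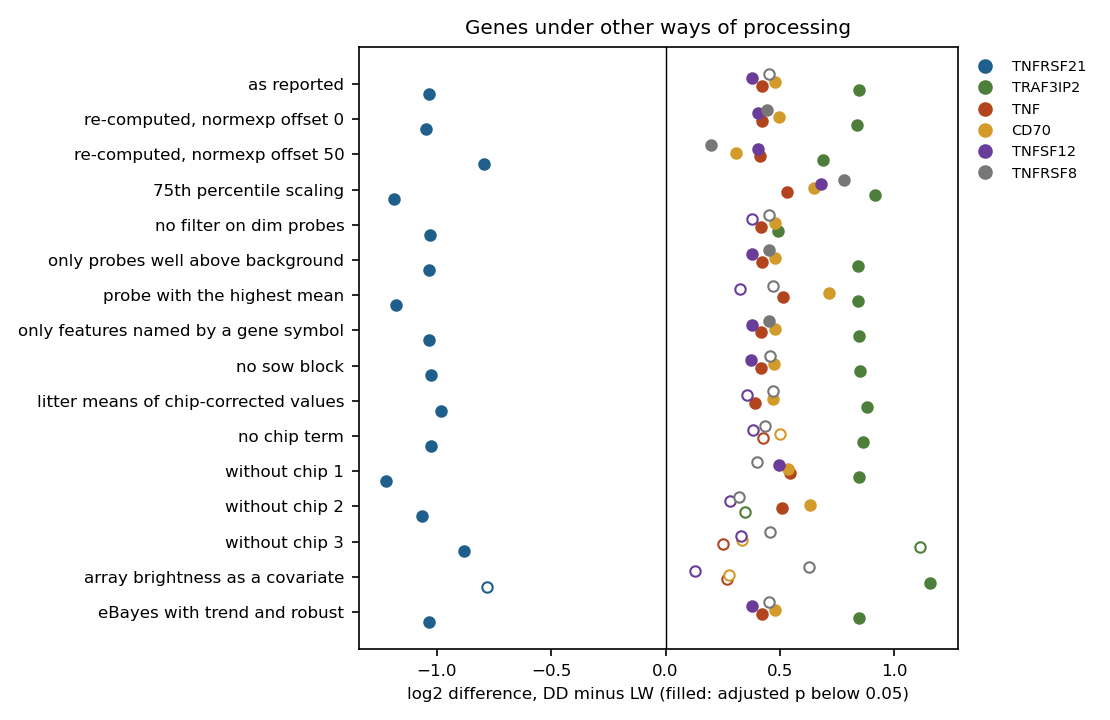
Log2 difference (DD minus LW, x axis) of the 5 called genes and TNFRSF8 as reported and under 15 other ways of processing (y axis); filled points have an adjusted p below 0.05. TNFRSF21 stays between -1.22 and -0.78, and all 6 genes keep their sign, while TNF, CD70 and TNFSF12 are open points without chip 3 and with brightness in the model.

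Genes that act downstream were read from 2 further lists. Of 29 tested genes of NF-kB and death signalling, RELA, a subunit of NF-kB, was higher (0.43 ± 0.14, adjusted p 0.0318 in limma), none was lower, and the median difference was 0.02. Calls thus made up 3.45% of that list, also against 21% of all features. Among 19 tested genes that TNF is known to induce, 4 were higher and 2 were lower (31.6% called), with a median of 0.17, where 11.4% of all features were higher and 9.57% lower, 21% in all. The chemokine CCL20 was higher by 0.64 ± 0.17 and the transcription factor CEBPB by 0.47 ± 0.12. CXCL2, another of the 4 higher genes, was well above background on only 2 of 10 DD and 1 of 11 LW arrays. The chemokines CCL5 and IL8 (CXCL8) were lower, at -1.10 ± 0.30 and -0.51 ± 0.14. IL8 was well above background on only 1 of 10 DD arrays and on 9 of 11 LW arrays, so the size of its difference is limited by background. CCL5, well above background on all arrays, is also a product of T and NK cells.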

How the data were processed

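RNA from blood of 10 DD and 11 LW pigs had been hybridized to a one-colour Agilent pig array on 3 chips. Of the 24 animals run, 3 were dropped by the authors as outlier arrays. They noted a technical bias of the third chip. The deposited log2 matrix, used here, had been background corrected (normexp), log2 scaled and quantile normalized by the authors. The deposited scanner intensities (Agilent Feature Extraction 10.7.3.1, per the submitters' processing notes) gave brightness, background flags and alternatives.

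Control probes and the dimmest 25% of probes were removed, and probes with 1 symbol were averaged. Differences were fitted with limma 3.58.1 in R 4.3.3 (breed and chip fixed, sow as block by duplicateCorrelation, eBayes), with Benjamini-Hochberg adjustment over 35578 features and a threshold of 0.05. The consensus correlation of siblings was -0.108. With the sow block 7459 features were called, and without it 5106, so the block gave the more liberal count over all features. Replicates are separate pigs, and litters are shared within breeds. Signal over background and the number of arrays limit precision.

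The members, lists and tests were chosen with earlier results of these data known. Text names every called member, the 5 uncalled ones with the largest differences, a set list of well-known members and all filtered members. Up to 4 called genes per list are named, and CXCL2 besides for its low signal. Probe sequences come from the scanner files and gene positions from RefSeq on Sscrofa11.1. The fit was tested on simulated data. Alternatives covered normalization, filters, probe choice, blocks, chips, brightness and each pig left out.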

Additional observations from a re-analysis of the deposited data

Results flagged for a closer look

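In the 10 DD pigs, TNFSF10 had 1 value far from the others: DD_06 was at 10.86 and the next pig at 9.99, a gap of 0.468 of the whole range. A gap this wide is expected in about 1 of 20 groups by chance, and 32 groups (31 genes and the brightness of the arrays) were examined, of which 1 stood out. The 11 LW pigs were not examined, because the limits used here covered groups of at most 10.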

How the results depend on the processing

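Of 31 tested members, 5 were called as reported. The count was 2 with no chip term, 3 without chip 2, 1 without chip 3 and 1 with array brightness as a covariate, and 10 of 64 when each probe was its own feature. With 1 pig left out it ran from 3 (LW_18) to 7. For all features, 7459 were called as reported, 4670 with no filter on dim probes, 1987 when only features with a gene symbol were kept (8152 tested), 1929 with no chip term, 533 without chip 3 and 780 with brightness as a covariate. With 1 pig left out this count ran from 2240 (LW_18) to 11741 (DD_06), and it was 3099 without DD_21, 4136 without DD_23, 4739 without LW_05, 4770 without LW_12 and 3888 without LW_22. With no sow block 5106 features were called, and the count of members stayed at 5. For all features the count was 7943 without chip 1 and 5014 without chip 2, which also leave out arrays. Some of these settings had fewer features or arrays, and the cause of the changes was not tested. Scaling to the 75th percentile moved the median of all features from -0.04 to 0.06 and the share of higher among called features from 54.3% to 69.3%. No called member changed sign. No paired analysis was possible because the breeds share no replicate numbers. Genes near background, such as TNFSF4 and TNFRSF11B, are limited by signal over background.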
